A study of Mus musculus with 2 samples.

Results

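The Chgb-high cells are the 65 cells of the wild-type mouse colon library that held at least 5 corrected counts of Epcam, a surface protein of epithelial cells, and at least 20 of Chgb, the gene of the granule protein chromogranin B. They made up 0.867% of the 7495 cells of that library (95% Clopper-Pearson interval 0.670 to 1.10) and 2.16% of its 3008 cells with Epcam at 5 or more (1.67 to 2.75). The series holds 11904 cells in 2 libraries, and the comparison class was the other 2943 cells with Epcam at 5 or more. The wild-type library pooled colon cells of 3 female C57BL/6 mice aged 8 to 12 weeks, sorted as EpCAM-positive CD45-negative and as EpCAM-negative CD45-negative cells, mixed in equal parts and captured with the version 3 kit of 10x Genomics. The other library held GFP-positive mesenchymal cells of 3 female Pdgfra-H2B-eGFP mice, in which the Pdgfra locus drives a nuclear green reporter, captured with the version 2 kit. Its gene table did not list Chgb, so the rule could not be applied there, and the 2 libraries shared 1 cell barcode. All Chgb-high cells came from 1 library in which cells were not assigned to mice, so there was no replicate and no test, and every comparison below is a description of cells.

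Values are UMI counts that the authors corrected to a common depth per cell, and a level is a mean corrected count per cell. The Chgb-high cells held between 6625 and 11003 corrected counts each, with a median of 9833. The other Epcam-positive cells had a median of 9645. Genes per cell had medians of 3759 in the Chgb-high and 3136 in the other cells, and the part of this difference in the results was not tested. Chgb and Epcam chose the cells and are given only as a description. Chgb ranged from 23 to 1397 in the chosen cells, with a median of 244. The values just inside the threshold were 23, 30, 30, 35 and 40, and the highest values outside it were 15, 11, 11 and 10. Of the other cells, 2808 held no Chgb and 135 held 1 to 19, so few cells lay near the threshold. A further 3 cells passed the Chgb threshold with Epcam at 4, 2 and 2. They held Chgb at 476, 106 and 48 and Tph1 at 26, 13 and 5.

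Enteroendocrine cells are scattered epithelial cells that store peptide hormones or amines in dense-core granules and release them toward nerves, blood or neighbouring cells. In the colon, enterochromaffin cells make serotonin through the enzyme Tph1 and often the tachykinin substance P from Tac1, whereas L cells make proglucagon peptides from Gcg, peptide YY from Pyy and insulin-like peptide 5 from Insl5. Granins such as chromogranin A and B are cargo of the granules in both kinds of cell.

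The working label of these cells, enteroendocrine cells of the colon, was checked with 5 marker genes, and the data went against it for those of the L-cell hormones. Chga, the gene of chromogranin A, was above 0 in 65 of 65 Chgb-high cells, with values of 3 to 423, a median of 114 and a mean of 133 ± 87.8 (SD over cells, n = 65). The other Epcam-positive cells averaged 0.322. Neurod1, a basic helix-loop-helix factor of endocrine differentiation, was above 0 in 60 of 65 cells, with a median of 5 and a mean of 6.58 against 0.0479. Both genes marked the Chgb-high cells nearly throughout. Pyy was above 0 in only 5 of 65 cells (7.69%, 2.54 to 17.0) and reached 10 in 1 of them, and its mean of 0.985 lay below the 10.2 of the other cells. Insl5 was above 0 in 1 of 65 cells, with a value of 1. Its mean in the other cells was 4.55, a ratio of 296 with a 95% counting interval of 53.1 to 11680.1. Cells with much Pyy and Insl5 were therefore outside the Chgb threshold, and the label covered more kinds of hormone cell than the rule chose. The cells are called Chgb-high cells here.

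The hormone cells that the rule missed were gathered after their values were seen as the 22 other Epcam-positive cells with Insl5 or Gcg at 10 or more, called the Insl5 or Gcg cells. Their Chgb ran from 0 to 11 with a median of 2.5, and their Chga from 0 to 97 with a median of 18.5. All 22 held Pyy, between 28 and 4121 with a median of 770. Without them, the remaining 2921 Epcam-positive cells had a Pyy mean of 0.0941, and the log2 ratio of Pyy went from -3.36 to 3.26. That of Insl5 went from -7.49 to -0.46, within 2-fold. The turn of Pyy rests on 1 Chgb-high cell, which held 59 of the 64 Pyy counts of its class, since the other 64 cells held 5 counts together, a lower level than 0.0941. Against all other cells, the log2 ratio was -6.92 without the 11 Chgb-high cells that carry markers of other cell types, of which this cell is 1. Means of the log values gave 0.21. With the Chgb threshold at 10, which took 70 cells, Pyy, Insl5 and Gcg had log2 ratios of 2.21, 2.37 and 0.46, so the low hormone values hold for the threshold of 20. In the cells that remained without the Insl5 or Gcg cells, Insl5 averaged 0.0250 and Neurod1 0.0223. The scatter of Chgb and Chga shows the gap between both classes.

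**Figure D1:**
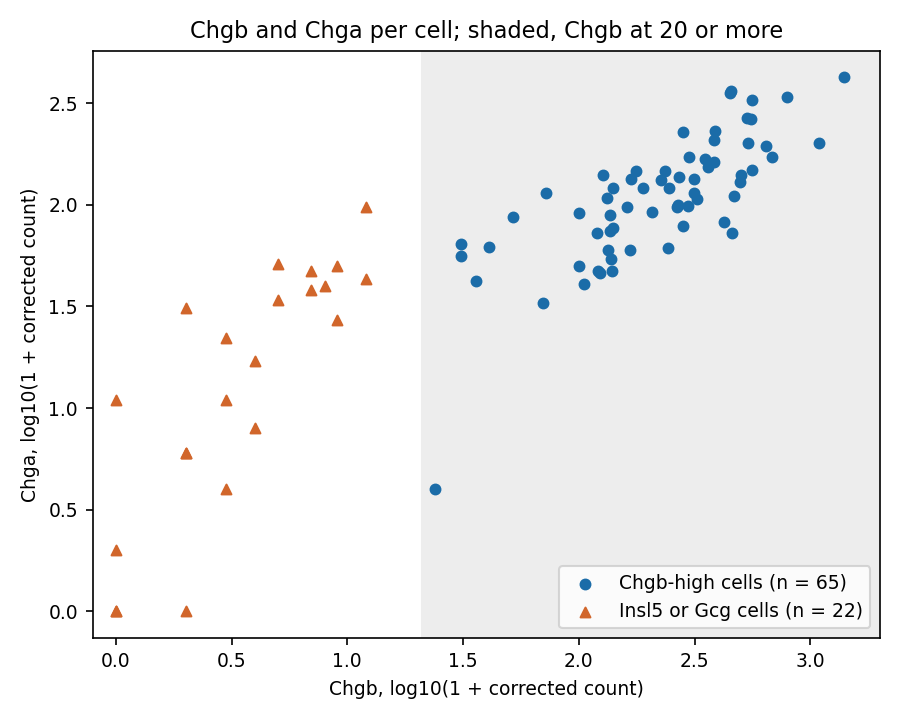
Chgb (x axis) and Chga (y axis) as log10 of 1 + corrected count in the 65 Chgb-high cells (circles) and the 22 Insl5 or Gcg cells (triangles), with Chgb at 20 or more shaded. Chga overlapped between the classes (3 to 423 and 0 to 97), whereas Chgb left a gap between 11 and 23. The rules set the classes on either side of 20, and an Epcam-positive cell in neither class held Chgb at 15.

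Chga and Chgb varied together among the Chgb-high cells, with a Spearman correlation of 0.78 over 65 cells of 1 library. Chgb correlated with genes per cell at 0.32 and Chga at 0.09. Since Chgb chose the cells, this is a description only. The promoters of both granin genes are shown because one gene chose the cells and the other was above 0 in all of them. The sequences are from RefSeq on GRCm38.p6, and capitals mark TGACGTNA, the letters of a cAMP response element with 1 free base, and TATAAA. The Chga window was chr12:102554691-102554990 and the Chgb window chr2:132781392-132781691, both on the plus strand. Both strands were searched, and the motifs were chosen after the sequences were seen.
Chga: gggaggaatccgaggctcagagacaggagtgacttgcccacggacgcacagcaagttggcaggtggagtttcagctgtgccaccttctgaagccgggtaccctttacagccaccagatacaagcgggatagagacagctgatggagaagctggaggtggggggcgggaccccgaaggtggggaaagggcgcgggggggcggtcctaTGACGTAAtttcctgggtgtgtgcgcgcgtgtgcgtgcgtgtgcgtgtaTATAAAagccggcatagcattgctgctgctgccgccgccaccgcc
Chgb: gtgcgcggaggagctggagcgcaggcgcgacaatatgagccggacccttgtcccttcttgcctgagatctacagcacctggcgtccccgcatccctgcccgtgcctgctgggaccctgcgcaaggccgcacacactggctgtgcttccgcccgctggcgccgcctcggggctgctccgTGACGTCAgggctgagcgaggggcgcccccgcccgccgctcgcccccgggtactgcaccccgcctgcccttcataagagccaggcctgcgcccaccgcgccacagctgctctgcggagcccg
Both windows held the cAMP element, which was present in 963 of 32851 mouse promoter windows of the same length (2.93%), and that of Chga also held TATAAA, present in 4473 (13.6%). It began at base 6 after the start site on which the Chga window is built. GENCODE M21 places the start of Chga at 102554969 and that of Chgb at 132781278, so the whole Chgb window lies after the latter. Of the 2 windows listed for Tph1, neither held these letters. A match is a description of the letters and says nothing of binding.

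Most Chgb-high cells carried Tph1, and the peptide genes called most often in them were Tac1 and Sct, the gene of secretin. A hormone gene was called in a cell at 10 or more corrected counts, over 13 hormone genes listed in the table. Tph1 was called in 56 of 65 cells (86.2%, 75.3 to 93.5), Tac1 in 23 (35.4%, 23.9 to 48.2) and Sct in 14 (21.5%, 12.3 to 33.5). Sct was shared with the Insl5 or Gcg cells, where it was called in 7 of 22 (31.8%, 13.9 to 54.9). Tph1 alone was the most frequent state, in 27 cells. Tph1 with Tac1 was found in 15 cells, Tph1 with Sct in 9, and all of Tph1, Tac1 and Sct in 4. Tac1 without Tph1 was called in 4 cells. Of the remaining cells, 4 had no hormone gene at this level, 1 had Tph1, Sct and Iapp, and 1 had Pyy and Ghrl. Iapp encodes the peptide amylin and Ghrl encodes ghrelin. So 30 of 65 cells held 2 or more hormone genes (46.2%, 33.7 to 59.0), 31 held exactly 1 and 4 held none (6.15%, 1.70 to 15.0). This share depended on the level at which a gene was called, with 86.2% at 3 counts and 15.4% at 30.

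No Chgb-high cell held Tph1 together with Gcg or Insl5 at 10 or more. A count of 0 of 65, with the limit taken as 3 counts of the total, allows a share of up to 4.62% of cells with such values. At any value above 0, Tph1 was found with Gcg or Insl5 in 3 of 65 cells (4.62%, 0.962 to 12.9), with Gcg or Insl5 at 1 in each. The planned contrast between Chgb-high cells with Tph1 and those with Gcg or Insl5 had 56 cells on the first side and 0 on the second, so it gave no value. By itself, Gcg was above 0 in 3 Chgb-high cells, Cck in 2 and Sst in 1, while Nts, Penk and Ppy were at 0. The 1 cell with Pyy (59) and Ghrl (27) also held Gcg and Cck at 6 each, Sst at 1, Tph1 at 0 and Chgb at 30. The same cell held the endothelial gene Plvap at 26 and Reg4 at 115, had the most genes of the class (4747), and is 1 of the 11 cells with markers of other cell types given below. No other Chgb-high cell reached 10 for Pyy or Ghrl, and this cell was singled out after its values were seen. In the Insl5 or Gcg cells, Tph1 was 0 in 22 of 22, which allows up to 13.6% of cells with a value. Insl5 and Gcg chose that class among Epcam-positive cells with Chgb below the threshold, so its low Chgb is part of its rule. The limit on Chgb removed no cell, since Gcg reached at most 6 and Insl5 at most 1 in the Chgb-high cells. Only values of genes outside the rule, such as Pyy and Tph1 in the heat map of single cells, are not set by it.

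**Figure D2:**
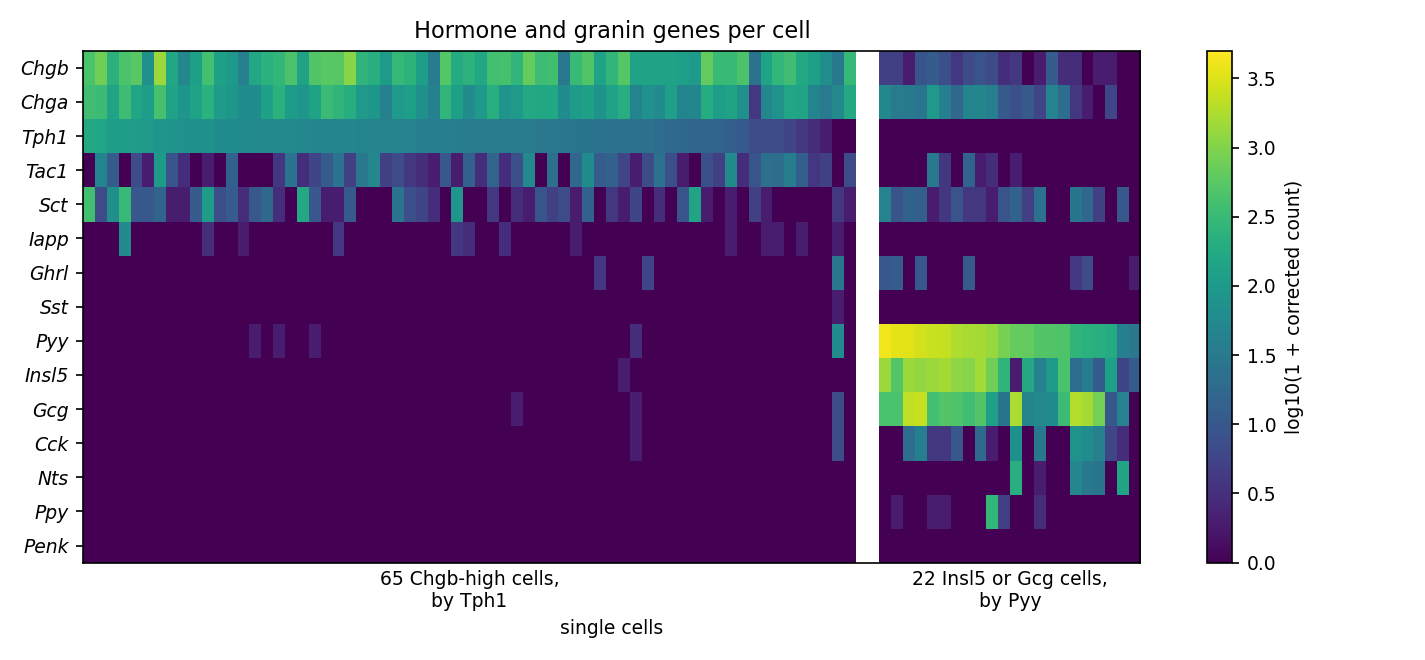
Heat map of granin and hormone genes (y axis) in the 65 Chgb-high cells ordered by Tph1 and the 22 Insl5 or Gcg cells ordered by Pyy (x axis, 1 column per cell), coloured by log10 of 1 + corrected count. Tph1 is above 0 in 63 of the first and 0 of the second, and Pyy in 5 of the first and 22 of the second.

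By level, Tph1 ran from 0 to 172 in the Chgb-high cells, with a median of 34 and a mean of 42.2 ± 34.7 (SD over cells), against 0.0761 in the other Epcam-positive cells. Tac1 ran from 0 to 102 with a median of 6, and its mean of 12.5 compared with 0.233. Sct was the most uneven, with a median of 2 and a maximum of 377, and its mean of 22.9 compared with 0.275. Values above 0 were found for Tph1 in 63 cells (96.9%), for Tac1 in 54 (83.1%) and for Sct in 47 (72.3%). In the Insl5 or Gcg cells, Tac1 was above 0 in 6 of 22 (27.3%) and Sct in 18 (81.8%), with a Sct mean of 9.0. In the 2466 cells with Epcam at 0, which should lack these genes, the shares were 0.446%, 0.892% and 1.62% at median depths of 8679 corrected counts and 2779 genes, against 9833 and 3759 in the Chgb-high cells. Among the other Epcam-positive cells Tac1 was above 0 in 13.4% and Sct in 12.2%, with few high values. Tac1 reached 10 in 7 of those 2943 cells, 2 of them Insl5 or Gcg cells and 5 with no Chga. Sct reached 10 in 11, of which 7 were Insl5 or Gcg cells and 4 had no Chga, and those 4 held Muc2, the goblet-cell mucin, at 217 or more.

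Across all genes, 14348 had at least 20 corrected counts over the Chgb-high and other Epcam-positive cells. Of these, 3365 (23.5%) were at least 2-fold higher in the Chgb-high cells and 2338 (16.3%) at least 2-fold lower, with a median log2 ratio of 0.23. A pseudocount of 0.1 in place of 0.01 left 1901 and 803. The gene lists are read against these shares.

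The serotonin pathway was present from synthesis to vesicle loading. Of 12 genes of amine synthesis and handling, 5 were higher, 2 lower and 5 within 2-fold, with a median log2 ratio of 0.74. Ddc, the decarboxylase that completes serotonin synthesis, averaged 13.6 against 0.462 and was above 0 in 64 of 65 cells. Slc18a1, a vesicular monoamine transporter, averaged 3.91 against 0.0272, a log2 ratio of 6.72, and was above 0 in 56 of 65 cells against 0.122% of Epcam-0 cells. Gch1, the first enzyme of the tetrahydrobiopterin cofactor, and Qdpr, which regenerates that cofactor, had log2 ratios of 2.62 and 1.26. The lower genes were those of an oxidase and of the reuptake transporter. Maoa, a monoamine oxidase, averaged 0.692 against 2.95. Slc6a4, the serotonin reuptake transporter, was at 0 in all 65 cells and at least 2.30-fold lower, with a floor of 3 counts over the class.

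Of the 14 pathway lists, that of granule proteins had the highest median. Of 15 granin and dense-core granule genes, Chga and Chgb included, 13 were higher, 1 lower and 1 within 2-fold, with a median log2 ratio of 5.40. Chgb was high by the rule, and without it 12 of 14 were higher, with a median of 5.39. Cadps, a priming factor of dense-core vesicles, had a log2 ratio of 6.98 and was above 0 in 53 of 65 cells. Ptprn, a transmembrane protein of granules, reached 6.51, the granin-like Vgf 6.48 and Resp18 6.38. The exception was the granin Scg2, with 1 count in 65 cells against a mean of 0.0605 (ratio 3.93, counting interval 0.706 to 155). Without the Insl5 or Gcg cells, the other cells held no Scg2 and its log2 ratio turned to 1.34, on that 1 count. Genes of prohormone processing were more mixed. Of 10, 6 were higher, 2 lower and 2 within 2-fold (median 1.93). Pcsk1n, whose product inhibits a prohormone convertase, averaged 36.9 and was above 0 in 65 of 65 cells, between 2 and 174. Cpe, the carboxypeptidase that trims prohormone ends, averaged 11.8 and was above 0 in all 65 cells. Pcsk1, a prohormone convertase, averaged 1.74 against 0.187, and Pcsk2, the other neuroendocrine convertase, was at 0 in every Epcam-positive cell.

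Release machinery of the neuronal kind was higher as well. Of 24 exocytosis genes, 18 were higher, 1 lower and 5 within 2-fold (median 2.76). Snap25, a membrane SNARE protein of regulated release, averaged 5.46 against 0.0150 and was above 0 in 63 of 65 cells. Rab3c, a vesicle GTPase, had a log2 ratio of 7.74, and Stxbp5l and Syt5 had 6.10 and 5.84. Of the SNARE genes of that list, Snap23 and Vamp8 were within 2-fold, with log2 ratios of -0.60 and -0.19. Of 20 genes of neuronal adhesion and cytoskeleton, 16 were higher, 1 lower and 3 within 2-fold (median 4.18). Map1b, a microtubule-associated protein, averaged 6.62 against 0.0734, and the RNA-binding factor Celf3 averaged 2.32 against 0.0197. Nefm, a neurofilament subunit, had a log2 ratio of 5.97. Markers of glia and enteric neurons were above 0 in part of the cells. Of 5 tested, 4 were higher and 1 within 2-fold, and in the 65 cells 7 of all 11 were at 0, among them S100b, Sox10 and Prph, and the summed mean of 1.08 against 0.0775 was led by Ret at 0.631. That sum was 0.570 in the Epcam-0 cells, and 38 of 65 Chgb-high cells held a marker of this list above 0, none at 10 or more.

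**Figure D3:**
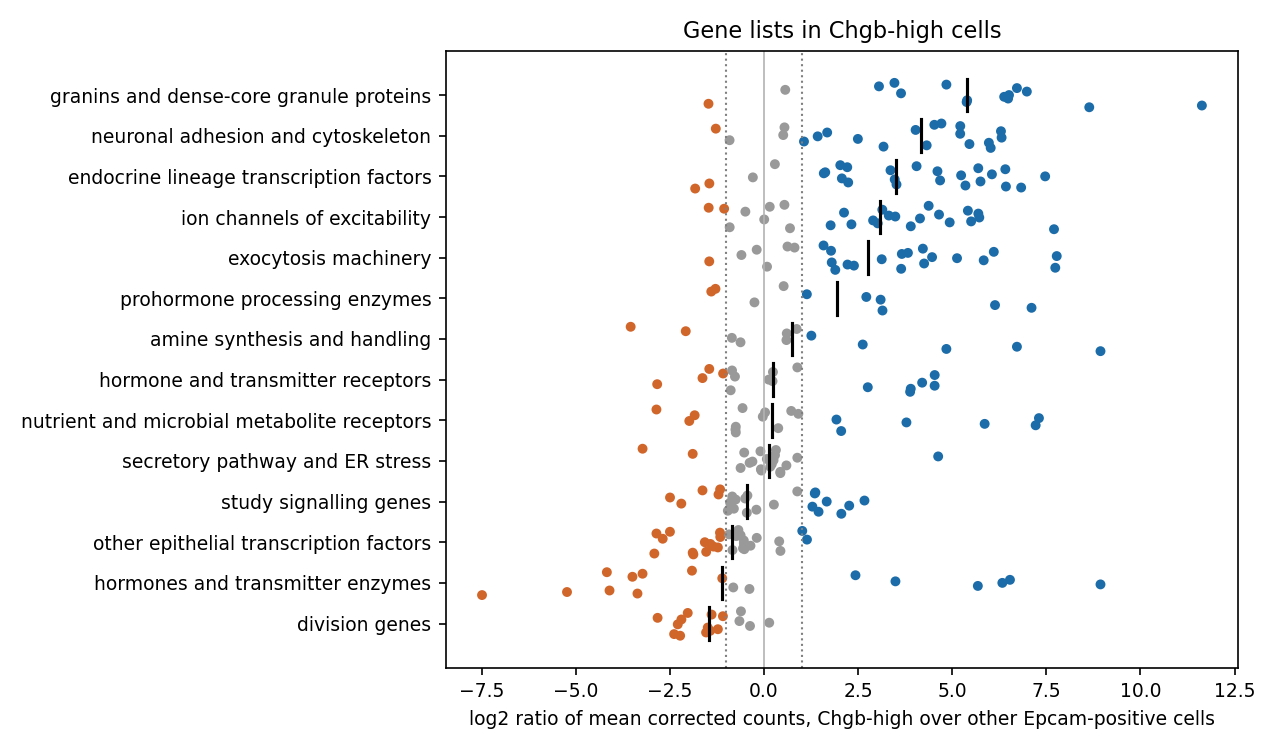
Log2 ratio of mean corrected counts, Chgb-high over other Epcam-positive cells (x axis), for every gene of 14 lists (y axis) with at least 20 counts. Points are genes, black bars list medians and dotted lines 2-fold. Medians run from 5.40 for granule proteins (5.39 without Chgb, which chose the cells) to -1.46 for division genes.

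Endocrine transcription factors were higher with few exceptions. Of 25 tested, 21 were higher, 2 lower and 2 within 2-fold, with a median log2 ratio of 3.52. Insm1, a zinc-finger factor of endocrine differentiation, averaged 5.35 against 0.0523 and was above 0 in 60 of 65 cells. Lmx1a, a LIM-homeodomain factor, averaged 2.12 against 0.00204 and was above 0 in 53 cells (81.5%, 70.0 to 90.1), against 0.406% of Epcam-0 cells. Fev, an ETS factor also known from serotonin neurons, averaged 2.20, and Nkx2-2, a homeodomain factor upstream of several endocrine fates, 1.94. Pax4 was above 0 in 22 cells. Neurog3, the factor of endocrine progenitors, was at 0 in all 65 cells. Of 29 other epithelial factors, 2 were higher, 13 lower and 14 within 2-fold (median -0.84). Spdef and Atoh1, factors of goblet and secretory cells, had log2 ratios of -2.91 and -1.87, and Hes1, a target of Notch signalling, -1.53. Gata6 was the higher one with the larger mean, 1.65 against 0.808.

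Most genes of electrical excitability were higher, whereas those of sensing were mixed. Of 26 ion channel genes, 18 were higher, 2 lower and 6 within 2-fold (median 3.08). Scn3a, a voltage-gated sodium channel, averaged 5.83 against 0.0180 and was above 0 in 56 of 65 cells. The calcium channel subunits Cacna2d1, Cacna1h and Cacna1a had log2 ratios of 5.50, 4.93 and 3.90. Kcnk16, a background potassium channel, was above 0 in 23 of 65 cells and in 0 of 2943 others, at least 498-fold higher. Of 18 genes of a list of nutrient and microbial metabolite sensing, which also holds the mechanically gated channels Piezo1 and Piezo2, 6 were higher, 3 lower and 9 within 2-fold (median 0.20), a spread close to that of all genes. The higher ones included Piezo2, with a mean of 4.42 against 0.0180. It was above 0 in 42 of 65 cells (64.6%, 51.8 to 76.1) and in 12.6% of Epcam-0 cells at a mean of 0.207 there. Olfr78, a receptor of short-chain fatty acids, averaged 2.54 against 0.00714 and was above 0 in 31 cells. Olfr558, a related olfactory-type receptor, was above 0 in 18 cells, and 16 of these also held Olfr78. Ffar2, another receptor of short-chain fatty acids, averaged 2.0 against 0.475. Ffar1, a receptor of long-chain fatty acids, and Gpbar1, a bile acid receptor, were at 0 in all 65. Of 17 hormone and transmitter receptors, 6 were higher, 4 lower and 7 within 2-fold (median 0.23). Sstr1, a somatostatin receptor, was above 0 in 32 cells, Galr1, a galanin receptor, in 18 and Gipr in 14. Levels were low, with Sstr1 the highest at a mean of 0.754. The list summed to 3.72 in the Chgb-high, 2.01 in the other Epcam-positive and 1.20 in the Epcam-0 cells. In the Insl5 or Gcg cells it summed to more, 6.64.

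The Chgb-high cells and the Insl5 or Gcg cells had some endocrine genes at similar levels and differed in others. Of 6652 genes tested between them, 1302 (19.6%) were at least 2-fold higher in the Chgb-high cells and 297 (4.46%) lower, a contrast between 65 and 22 cells defined from their own values. A gene needed 20 counts over both classes, which it reaches at a lower mean in the class of 65, so these 2 numbers cannot be compared with each other. Besides Tph1, the largest ratios toward the Chgb-high cells were of Piezo2, Slc18a1, Rab3c, Wif1, Slc38a11, Gsdma and Lmx1a, each at 0 in all 22. Besides hormone genes, the larger ratios the other way included those of Scg2, Avpr1b, Gpr119, Agtr1a and Prodh. Lmx1a was above 0 in 53 of 65 and 0 of 22 cells. Scg2 was above 0 in 1 and 18 cells, Etv1 in 11 and 19, Isl1 in 2 and 16 and Pax6 in 14 and 17. Gpr119, a lipid receptor, was above 0 in 1 and 14 cells, Gpbar1 in 0 and 14, Ffar1 in 0 and 10 and Abcc8, a subunit of ATP-sensitive potassium channels, in 2 and 13. Closer in level were Cpe, which averaged 11.8 and 16.4, Pcsk1n at 36.9 and 31.5 and Nkx2-2 at 1.94 and 1.59. Other endocrine genes were further apart, with Chga at 133 and 24.0, Ddc at 13.6 and 4.45 and Neurod1 at 6.58 and 3.45.

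**Figure D4:**
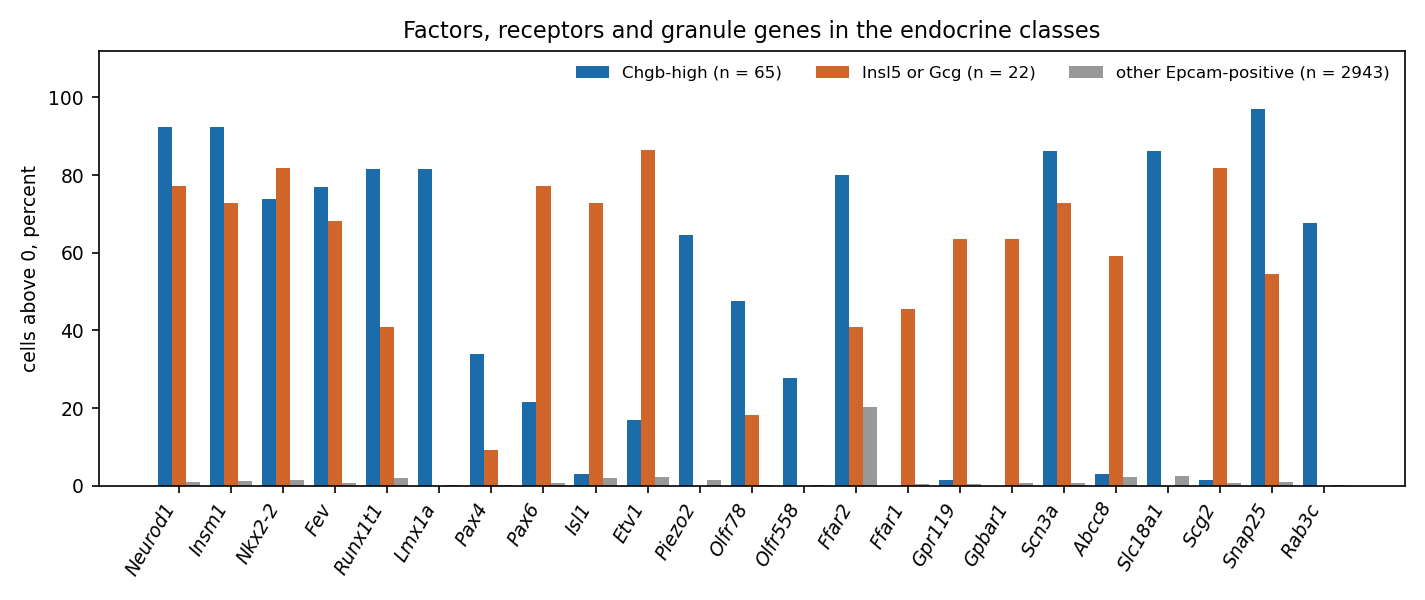
Percent of cells above 0 (y axis) for transcription factors, receptors, channels and granule genes (x axis) in the 65 Chgb-high, 22 Insl5 or Gcg and 2943 other Epcam-positive cells, the last of which include the 22. Lmx1a (53 of 65 against 0 of 22) and Gpbar1 (0 of 65 against 14 of 22) are each at 0 in the opposite endocrine class.

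Among the Chgb-high cells, Tac1 and Sct were spread unevenly. Tac1 reached 10 in 23 cells and Sct in 14, with both in 4. Of the 7 cells with Sct at 50 or more, 6 held Tac1 at 2 or less and 1 held it at 11. Mean Tac1 was nevertheless 14.4 in the 14 cells with Sct at 10 or more and 11.9 in the other 51, with medians of 1.5 and 6. Over the 65 cells the Spearman correlation of Tac1 with Sct was -0.39, and with genes per cell Tac1 stood at 0.06 and Sct at -0.18. Sct rose with Tph1 (0.50), with Pcsk1n (0.66), with Wif1 (0.63), a secreted Wnt inhibitor, and with the synaptotagmin Syt7 (0.62). Tac1 went most closely with Gars (0.53), and next with Olfr78 (0.51). Olfr78 was above 0 in 17 of the 23 cells with Tac1 at 10 or more and in 14 of the other 42. It correlated with genes per cell at 0.33 and with Chgb, which chose the cells, at 0.54. Mean Tph1 was 68.5 in the 14 cells with Sct at 10 or more and 35.0 in the other 51. Reg4, a lectin made by secretory cells of the crypt, was at 10 or more in 16 cells, 1 of which had Sct at 10 or more. Of these 16, 6 were among the 11 cells with markers of other cell types, of which 3 held Muc2 at 46, 62 and 301 and 1 held Plvap at 26. These splits were drawn after the values were seen.

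A second axis of variation, also found after the values were seen, was that of Piezo2. The genes that followed it most closely over the 65 cells were Slc5a8 (0.73), a sodium-coupled monocarboxylate transporter, Hoxb13 (0.66), the most posterior Hox gene of its cluster, Rtn1 (0.66), Fgl2 (0.62) and the semaphorin coreceptor Nrp2 (0.61). Piezo2 correlated with genes per cell at 0.38 and Hoxb13 at 0.21. Hoxb13 was above 0 in 45 cells and Piezo2 in 42, with 40 holding both and 18 neither. Piezo2 averaged 6.27 in cells with Hoxb13 and 0.25 in the 20 cells without. Hoxb6, a Hox gene expressed further forward, was above 0 in 2 of the 45 and in 8 of the 20. Sct averaged 5.84 and 61.3 in these sets, and Reg4 6.93 and 47.5, although their medians were 2 and 3.5 for Sct and 0 and 1.5 for Reg4. Sct reached 10 in 6 of the 45 and 8 of the 20, and Reg4 in 7 and 9. Other genes differed in their medians, among them Tac1 at 4 and 11, Slc18a1 at 2 and 7 and Chga at 98 and 153. Hoxb13 was not limited to Chgb-high cells, since it was above 0 in 15 of 22 Insl5 or Gcg cells and in 1548 of 2943 other cells (52.6%), whereas Piezo2 was above 0 in 0 of 22 and in 40 of 2943.

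**Figure D5:**
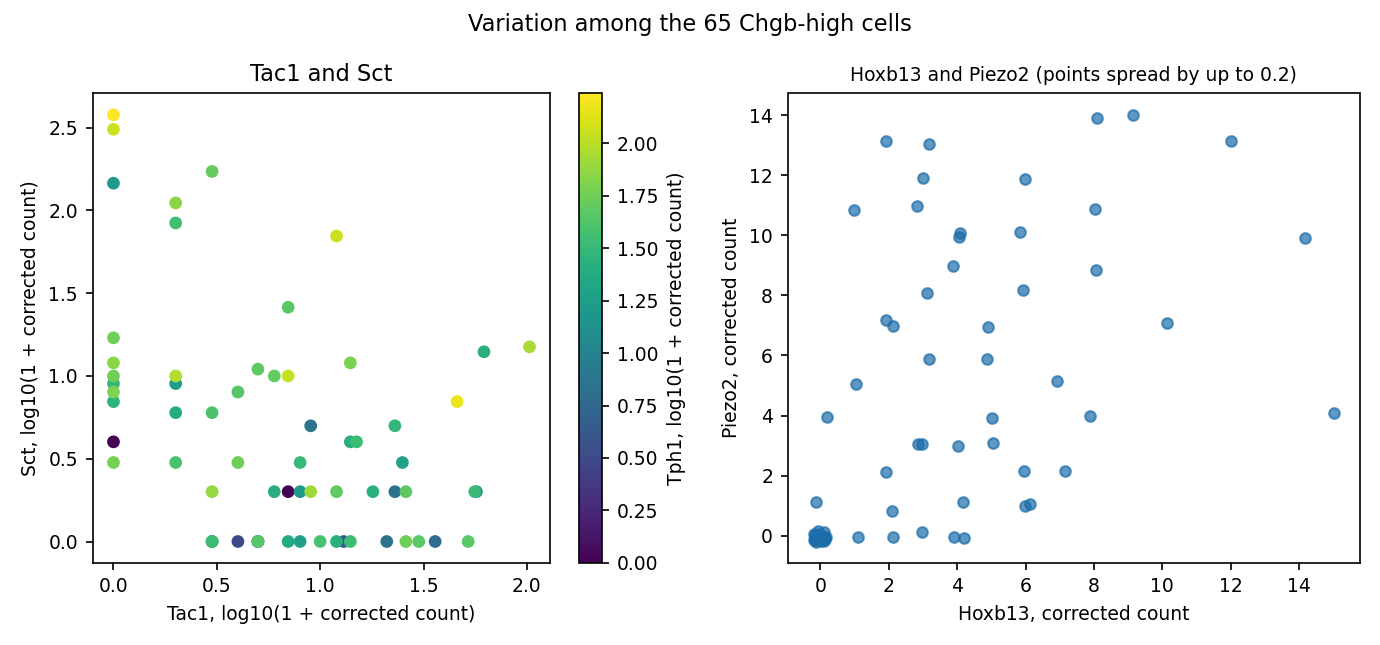
Left, Tac1 (x axis) and Sct (y axis) as log10 of 1 + corrected count in the 65 Chgb-high cells, coloured by Tph1; right, Hoxb13 (x axis) and Piezo2 (y axis) as corrected counts, spread slightly. Sct at 50 or more falls at Tac1 of 0 to 11, and 40 of 42 cells with Piezo2 also hold Hoxb13.

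Products of the other epithelial lineages were mostly lower in the Chgb-high cells. All 10 goblet markers were lower (median -2.95), among them Clca1 at 0.0462 against 5.28 and Zg16 at 0.338 against 18.5. Of 10 colonocyte markers, 9 were lower (median -4.19), with Car1, a carbonic anhydrase, at 0.646 against 24.5. The exception was Krt20, a keratin of mature surface cells, at 8.68 against 1.60 and above 0 in 60 of 65 cells. Of 6 deep crypt secretory markers, 4 were lower and 1 within 2-fold, while Reg4 was higher at 19.4 against 5.83. Its median was 0, with 27 of 65 Chgb-high cells above 0. In the Insl5 or Gcg cells Reg4 averaged 48.7, with a median of 38 and 16 of 22 cells above 0. All 8 stem and dividing-cell markers were lower (median -1.73). Of 16 division genes, 12 were lower, 0 higher and 4 within 2-fold (median -1.46), and Mki67 was above 0 in 3 of 65 cells. Of 8 tuft markers tested, 1 was higher, 2 lower and 5 within 2-fold, and Trpm5 and Pou2f3 were at 0. Of 20 genes of the secretory pathway and of stress in the endoplasmic reticulum, 17 were within 2-fold. Atf6, a stress sensor of that compartment, was the 1 higher gene, at 4.55 against 0.175 and above 0 in 53 of 65 cells, against 19.4% of Epcam-0 cells.

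Some Chgb-high cells carried markers of other cell types. A goblet, stromal, endothelial or blood marker reached 10 in 11 of 65 cells (16.9%). Muc2 stood at 301, 62 and 46 in 3 of them, and Plvap, an endothelial gene, at 19, 26 and 34 in 3 others. All but 1 of 8 endothelial markers were higher, with a summed mean of 3.02 against 0.629, Plvap highest at 1.25 and Lyve1 at 0. Without the 11 cells, chosen after seeing the data for having such a marker at 10 or more, the sum was 0.426 and Plvap turned from a log2 ratio of 2.60 to -2.14. The endothelial, fibroblast, muscle, blood and goblet sums fall by that choice and only show how far the counts lay in those cells. Fibroblast markers summed to 6.86 against 11.6, led by Gsn at 2.74, with 4 of 10 lower and 6 within 2-fold, and to 3.93 without the 11 cells. Of 8 smooth muscle and pericyte markers 1 was higher and 2 lower, with a sum of 1.71 against 2.30, Acta2 highest at 0.708 and Rgs5 at 0, and the sum was 0.333 without the 11 cells, since 1 cell held 93 of these counts. Blood and immune markers summed to 0.846 against 5.54, with 3 higher and 3 lower of 7 (median -0.75, or 0 with genes at 0 set to their bound), Cd74 highest at 0.446 and Cd3e at 0, and the sum was 0.463 without the 11 cells. Goblet markers summed to 23.5, led by Muc2 at 6.92, and to 3.56 without the 11 cells, while the deep crypt secretory markers went from 44.0 to 19.9. Scrublet, a doublet caller, named 1 of the 65 at the setting used, 0 at its default and 3 at an expected rate of 0.1. Removal of the 11 cells left 54 cells, 3229 higher and 3164 lower genes and a share of 53.7% with 2 or more hormone genes. The share with no hormone gene fell from 6.15% to 1.85%, since 3 of the 4 cells with none were among the 11.

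Among signalling genes that the study followed between epithelium and fibroblasts, 8 of 25 were higher, 5 lower and 12 within 2-fold (median -0.46). Ihh, the hedgehog ligand of the colon epithelium, averaged 2.43 against 0.577 and was above 0 in 51 of 65 cells. Ptprs, a receptor phosphatase, and Fzd3, a Wnt receptor, had log2 ratios of 2.67 and 2.26. Areg, a ligand of the EGF receptor, was lower at 1.17 against 6.64, and Cd44, an adhesion receptor, at 0.108 against 0.529. Of the 17 tested genes of the wider hormone list, 6 were higher, 9 lower and 2 within 2-fold (median -1.11, or -0.81 with genes at 0 set to their bound). The lower ones included Guca2a, the guanylin gene of surface cells, at 0.723 against 13.2.

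Outside the lists, the largest ratios toward the Chgb-high cells were of Slc38a11, an amino acid transporter family member, Gsdma, a gasdermin, and Wif1, at log2 ratios of 7.67, 7.27 and 6.65. Kif1a, a kinesin of dense-core vesicles, had 5.97, Rimbp2, a protein of presynaptic release sites, 5.83, and Syp, the vesicle protein synaptophysin, 5.54. The rest of the leading 20 were Fam19a1, Rundc3a, Hmgn3, Amigo2, Cryba2, Vwa5b2, Lrp11, Baiap3, Elavl3, Tm4sf4, Peg3, Sez6l2, Pex5l and Fam183b, with log2 ratios down to 5.18. Besides Insl5, Gcg, Clca1, Zg16 and Car1, the lowest were Retnlb, Reg3b, 1810065E05Rik, S100g and Hba-a1. Without the Insl5 or Gcg cells, Insl5 and Gcg had log2 ratios of -0.46 and 1.23. Retnlb and Reg3b encode antimicrobial proteins and Hba-a1 encodes a hemoglobin chain.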

How the data were processed

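The authors aligned reads to mm10 with Cell Ranger and filtered cells and genes in Seurat 3.1 under R 3.6.2. The deposited whole numbers, a score per gene and cell, are UMI counts corrected by SCTransform. The deposited log table holds the natural log of 1 + that value, equal within 9.5e-07. Class means were compared as log2 ratios with a pseudocount of 0.01, over genes with at least 20 counts, called at 2-fold. Python 3.11.15, numpy 2.4.6, scipy 1.17.1, pandas 2.3.3, scanpy 1.11.5 and matplotlib 3.10.9 were used. Members and lists were chosen with earlier results of these data known. Genes were named from several sets, not all of which were named in full. These were the markers, the called hormone genes and high means and folds of each list. The others were the 20 highest outside the lists, the 10 lowest, the 12 each way against the Insl5 or Gcg cells, and those correlating most with a marker. Some lists went without their highest mean, such as Hbegf (signalling genes), Klf4 (other epithelial factors) and Hspa5 (secretory pathway). Other named genes were chosen after their values were seen. Intervals of shares are Clopper-Pearson at 95%. The counting intervals of the Insl5 and Scg2 ratios are exact Poisson intervals at 95% of the count in the Chgb-high cells. The mean of the other cells was held fixed in them. Both kinds cover counting error only. The limit for a count of 0 is 3 counts of the total. Doublets were kept. Scrublet at its default expected rate of 0.05 with 30 components called 5 of 7495 cells, at 0.1 it called 141, and at 0.06 with 20 components, the setting used and chosen after the default had been seen, 105. Alternatives varied both thresholds, the filter, the pseudocount, the summary, depth and cells.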

Additional observations from a re-analysis of the deposited data

Results flagged for a closer look

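In the reporter library, which was sorted for GFP-positive mesenchymal cells and takes no part in the comparisons, 28 of 4409 cells held Epcam at 5 or more. This share of 0.635% (Clopper-Pearson interval 0.422 to 0.917) lay above the limit of 0.0680% that a count of 0 allows, which any count above 3 would do. These cells averaged 12.4 corrected counts of Krt19 and 18.0 of Krt8, both keratins of simple epithelia, against 0.0137 and 0.0201 in the rest of that library. Pdgfra was above 0 in 1 of the 28 and Pyy in 0. Over all 4409 cells of that library, Pdgfra was above 0 in 1344 and Pyy in 13. Chga, Chgb, Tph1, Neurod1 and Insl5 were not listed in its table.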

How the results depend on the processing

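The counts of genes 2-fold higher and lower moved past 1.5 times under 1 of 16 alternatives, the pseudocount of 0.1, which left 1901 and 803 because it shrinks ratios of low genes by construction. The share of cells with 2 or more hormone genes was 86.2% when called at 3, 15.4% at 30 and 32.3% in cells thinned to 5000 corrected counts. The share with none was 0, 33.8% and 16.9% under the same settings, and 1.85% without the 11 cells that carry other markers. Both shares shift with the level called by construction. Of 924 log2 ratios, 66 genes under 14 alternatives, 909 kept their direction and call, 5 weakened, 2 strengthened and 8 turned. With Chgb at 10 or more (70 cells), Pyy came to 2.21, Insl5 to 2.37 and Gcg to 0.46. Without the Insl5 or Gcg cells, Pyy came to 3.26 and Gcg to 1.23, where 1 Chgb-high cell held 59 of 64 Pyy and 6 of 8 Gcg counts, and Insl5 weakened to -0.46. Means of log values gave Pyy 0.21 and weakened Gcg to -0.44. Plvap came to -1.09 with Epcam at 1 or more and to -2.14 without the 11 cells that carry other markers, which were chosen for such counts. The cause was not tested for the log means and for Epcam. The alternatives without those 11 cells, without Insl5 or Gcg cells, and with Scrublet at its default or at 0.1 were chosen after seeing the data. The Scrublet setting used was itself chosen after its default had been seen. The median of all genes shifted from 0.23 to 0.11 under the pseudocount of 0.1 and without the 11 cells. Planned results for Tph1-only against Gcg or Insl5-only cells, and their filters, gave no value. No paired analysis was possible because cells were not assigned to mice.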

Other observations

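Among Hox genes looked at after the values were seen, Hoxa13, a posterior Hox gene, was above 0 in 17 of 65 Chgb-high cells and in 0 of 22 Insl5 or Gcg cells, against 16.9% of the other Epcam-positive and 28.6% of Epcam-0 cells. The count of 0 of 22 allows a share of up to 13.6%. Hoxd13 was above 0 in 6 of 65 Chgb-high cells (9.23%) and in 4 of 22 Insl5 or Gcg cells (18.2%). Its share was 13.5% in the other Epcam-positive cells, between these 2, and the cell numbers are small. The genes that ran most closely against Chga over the 65 cells were those of ribosomal proteins, with Spearman correlations of -0.63 for Rplp1 and -0.62 for Rpl7.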
